A study of Mus musculus with 16 samples.

Results

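The genes described here are 10 markers of resident tissue macrophages: Aif1, Adgre1, Folr2, C1qa, C1qb, C1qc, Cd68, Mrc1, Cd163 and Csf1r. They were listed by name, and each array probe was assigned to a gene by matching its transcript accession to a gene symbol. Of the 10 genes, 9 had a matched probe, with 13 probes in all, among 25196 genes or unnamed transcripts tested on the arrays. Cd68, a lysosomal glycoprotein, had no match and is not analysed here. The study measured quadriceps RNA of 16 mice, wild type (WT) or knockout (KO) for the transcription factor KLF15, with 1 single-colour Agilent array per animal. Each mouse was injected once into the peritoneum with vehicle or with 2 mg/kg dexamethasone (Dex), a synthetic glucocorticoid, and each array is labelled 8 h. The protocol also speaks of animals assessed at 0 h, and no array here carries that time. The 4 groups of 4 animals were WT with vehicle, WT with Dex, KO with vehicle and KO with Dex, and the design asked how responses to glucocorticoids depend on KLF15. The sources used here do not give the knockout allele, strain, sex or age of the mice. Whole muscle was measured, so a lower signal of a macrophage gene from fewer macrophages and one from less RNA per macrophage cannot be told apart.

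Muscle holds resident macrophages that lie in the connective tissue around fibres and vessels. They clear debris and apoptotic cells, make the complement component C1q, and depend on signals through the receptor CSF1R, with the transcription factor PU.1 setting much of their gene programme. Glucocorticoids act through the glucocorticoid receptor, which is present in macrophages as well as in muscle fibres, and are known to dampen inflammatory genes while raising some scavenger receptors such as Cd163. The markers fall into 4 roles here. Aif1 encodes IBA1, a calcium-binding protein that bundles actin. Adgre1 encodes F4/80, an adhesion G protein-coupled receptor, and Csf1r encodes the receptor for the growth factors CSF1 and IL34. C1qa, C1qb and C1qc encode the 3 chains of C1q. Folr2, Mrc1 and Cd163 encode uptake receptors for folate, mannosylated glycoproteins and haptoglobin-haemoglobin complexes.

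The sequences just upstream of 4 of these genes are shown because the genes stand at both ends of the responses below: Aif1 had the lowest Dex change of the markers, C1qc the lowest of the 3 C1q chains, and Mrc1 and Cd163 had changes near or above 0 in the KO. Each is the 250 bases before the annotated start, 5′ to 3′ on the gene's strand, from RefSeq with build GRCm38.p6. Aif1 lies at chr17:35176053-35176302 and C1qc at chr4:136892915-136893164, both on the minus strand. Mrc1 lies at chr2:14229164-14229413 and Cd163 at chr6:124304401-124304650, both on the plus strand. Capitals mark 2 short motifs searched on both strands, the PU.1 core (GAGGAA, or TTCCTC on the other strand) and a glucocorticoid receptor half-site (AGAACA, or TGTTCT on the other strand).
Aif1: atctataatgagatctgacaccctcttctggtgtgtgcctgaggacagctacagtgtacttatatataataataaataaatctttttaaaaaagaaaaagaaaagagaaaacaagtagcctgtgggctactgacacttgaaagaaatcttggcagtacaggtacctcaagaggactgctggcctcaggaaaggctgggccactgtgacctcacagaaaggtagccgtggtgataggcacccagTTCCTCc
C1qc: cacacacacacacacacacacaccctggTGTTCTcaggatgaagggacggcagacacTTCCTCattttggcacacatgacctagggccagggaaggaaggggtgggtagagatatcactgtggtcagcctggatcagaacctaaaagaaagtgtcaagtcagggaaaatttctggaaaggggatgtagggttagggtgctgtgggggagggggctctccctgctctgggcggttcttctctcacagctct
Mrc1: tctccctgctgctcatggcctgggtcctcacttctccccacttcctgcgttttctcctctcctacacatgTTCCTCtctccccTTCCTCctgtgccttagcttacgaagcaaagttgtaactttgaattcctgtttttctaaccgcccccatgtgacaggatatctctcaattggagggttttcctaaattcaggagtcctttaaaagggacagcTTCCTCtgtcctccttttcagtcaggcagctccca
Cd163: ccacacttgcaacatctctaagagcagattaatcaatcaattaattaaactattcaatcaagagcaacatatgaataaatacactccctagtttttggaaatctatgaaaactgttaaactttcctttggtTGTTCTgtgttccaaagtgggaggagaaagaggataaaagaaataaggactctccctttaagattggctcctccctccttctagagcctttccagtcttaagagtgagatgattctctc

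Aif1 held a PU.1 core starting 7 bases before its start, and Mrc1 held 3, which began 180, 167 and 35 bases before it. C1qc held 1 PU.1 core and 1 half-site, and Cd163 held 1 half-site, starting 119 bases before its start. Across 8 windows of 7 markers (Cd68 among them, and Folr2 with 2 annotated starts), 5 held a PU.1 core and 4 a half-site. Of 32851 windows of the same length in the table, 23.3% held the PU.1 core and 16.1% the half-site. The AP-1 motif (TGAGTCA, or TGACTCA) was in 2 of the 8 windows and in 4.46% of all; none of the 4 sequences shown held it, and the 3 motifs share no letters in the windows shown. Such matches describe letters only. Adgre1, C1qa and Csf1r had no entry. C1qb, C1qc and C1qa lie in a row on chromosome 4 with no other gene of the table between them.

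All 16 arrays were used, with no saturated spot and with signal well above background for 66.3% to 80.6% of their spots. Levels below are log2 signal minus the array's own 75th percentile, so a level of 0 equals that percentile, and levels of different probes are not compared. Differences were tested with limma over all 25196 features, and a gene is called where the Benjamini-Hochberg adjusted p was below 0.05. Every KO array had a lower Klf15 level than every WT array (vehicle 3.34 ± 0.40 in WT and -0.63 ± 0.50 in KO, SD, n = 4), as the labels have it. All 12 muscle fibre genes of a marker list were well above background on enough arrays to be tested. On 2 Dex arrays neutrophil genes stood far apart. The median of 11 neutrophil genes, each centred on its mean over the arrays, was 6.76 on WT Dex replicate 3 and 5.17 on KO Dex replicate 1, and from -1.68 to 0.68 on the other 14. The median of 20 pan-leukocyte genes was also highest there (1.29 and 0.56), as was that of 4 erythroid genes (1.84 and 1.43). Arrays lay on 8 slides. WT Dex replicates 1 and 3 were each alone on a slide, and the latter was scanned on another day than the other 15 arrays.

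In WT muscle, Dex lowered 5 of the 9 markers: Aif1, Adgre1, Folr2, C1qc and Csf1r. Aif1 fell 8.26-fold, and the other 4 fell by between 1.53-fold and 2.26-fold. C1qa, C1qb, Mrc1 and Cd163 did not pass the test, and no marker rose. In KO muscle, Aif1 was the only marker of the 9 that passed, with a 7.32-fold fall. Among all features tested, 5.66% were called lower in WT and 4.72% in KO. The markers' shares were 5 of 9 and 1 of 9 against these. The markers were chosen with earlier results of these data known. These and the later shares thus describe the list and are not an independent test. The 9 changes had a median of -0.63 in WT and -0.41 in KO, beside medians of -0.07 and 0.07 over all features. All 9 changes were below 0 in WT and 7 of 9 in KO, where 58.1% and 41.5% of all features were below 0; with median scaling the WT count was 8, with Cd163 at 0.20. Being called lower in both genotypes held for Aif1 alone of the 9, and for 2.36% of all features.

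**Figure D1:**
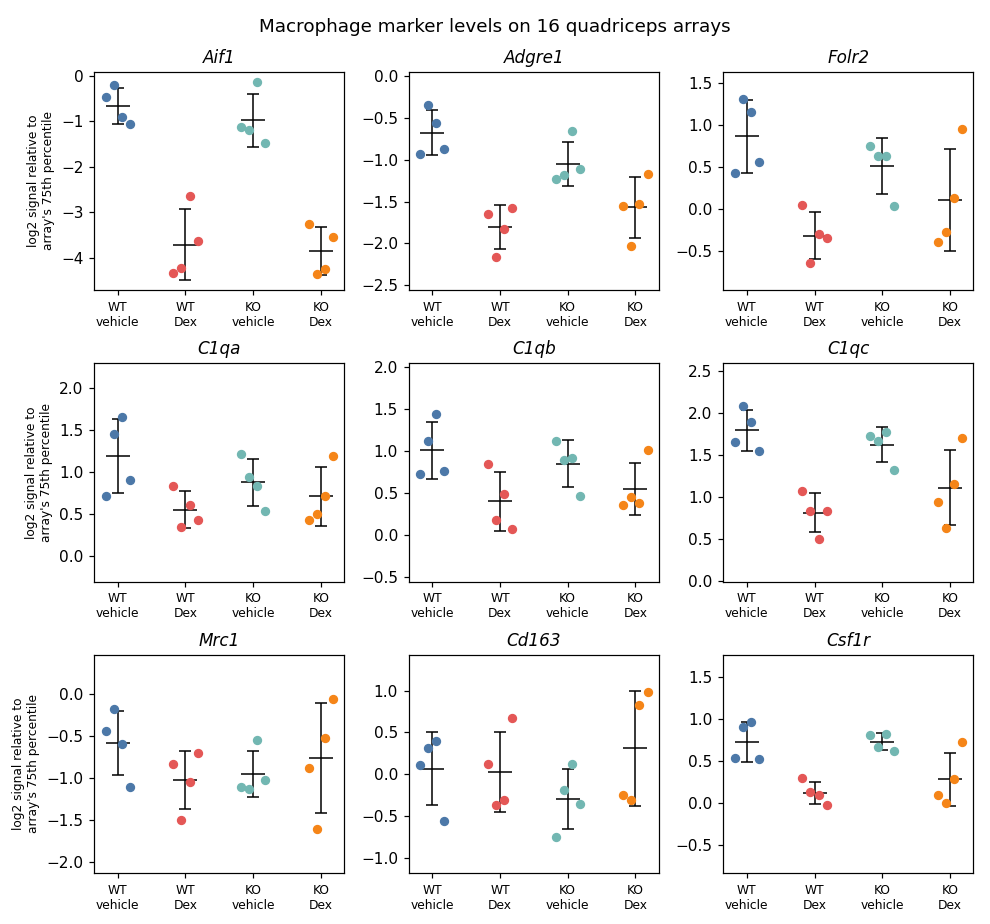
Level of each of 9 markers on the 16 arrays, as log2 signal relative to the array's 75th percentile, by group; points are single animals, the long bar is the mean and the whiskers are ± 1 SD (n = 4), and the vertical scale differs between panels. The 8 Dex arrays lie below the 8 vehicle arrays for Aif1 in both genotypes, while for Cd163 all 4 groups overlap.

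Aif1 was the marker that moved most. In WT its level with vehicle was -0.47, -0.21, -0.91 and -1.05 in replicates 1 to 4, and with Dex it was -4.34, -4.22, -2.63 and -3.63. In KO the vehicle levels were -1.13, -1.20, -0.13 and -1.47 and the Dex levels -3.26, -4.36, -4.24 and -3.55. Each Dex array thus lay below each vehicle array, with a gap of more than 1 log2 unit between the lowest vehicle level (-1.47) and the highest Dex level (-2.63). The log2 change was -3.05 (SE 0.40, 95% interval -3.90 to -2.19, adjusted p = 3.4e-04) in WT and -2.87 (SE 0.40, interval -3.73 to -2.01, adjusted p = 4.3e-04) in KO, by limma. Counted from the lowest change of the 25196 features, Aif1 was at rank 6 in WT and rank 7 in KO. Ordered by mean level, WT vehicle (-0.66 ± 0.39) came before KO vehicle (-0.98 ± 0.59), WT Dex (-3.71 ± 0.78) and KO Dex (-3.85 ± 0.53, SD, n = 4). The WT and KO levels did not differ by the test within either treatment (adjusted p = 0.90 with vehicle and 0.93 with Dex).

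A second Aif1 probe was dimmer. Its levels in WT were -2.88, -2.54, -2.96 and -3.61 with vehicle and -7.14, -6.89, -5.28 and -6.24 with Dex, where it was well above background on 1 of 4 arrays. The fitted change in WT was -3.39 (SE 0.92, adjusted p = 0.028). In KO its levels with Dex were -5.65, -7.62, -1.77 and -6.32, against -3.05, -3.07, -2.20 and -3.74 with vehicle. Replicate 3 of KO Dex was thus higher than each KO vehicle array on this probe, while on the brighter probe the same array was at -4.24. The KO change on the dim probe was -2.32 and did not pass (adjusted p = 0.14). The 2 probes therefore gave the same direction in both genotypes and the same call in WT alone.

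Among the alternatives for Aif1, 1 ended the call. With normexp background correction of the median spot signal and an offset of 50 its change was -1.25 in WT (adjusted p = 0.48) and -1.41 in KO (adjusted p = 0.27); that setting called 183 features in WT in place of 2709. In the other 29 alternatives Aif1 kept its call in each genotype. Its level with Dex was highest within the group on the 2 arrays with high neutrophil genes (-2.63 and -3.26), and without those arrays the change was -3.41 in WT and -3.07 in KO (adjusted p = 2.1e-04 and 2.7e-04).

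The receptors Adgre1 and Csf1r changed less. Adgre1 levels in WT were -0.93, -0.35, -0.56 and -0.87 with vehicle and -1.65, -2.16, -1.83 and -1.58 with Dex, with no overlap. The change was -1.13 (SE 0.20, adjusted p = 0.0028), a 2.18-fold fall. In KO the vehicle levels were -1.23, -1.18, -0.66 and -1.11 and the Dex levels -1.55, -2.03, -1.53 and -1.17. KO Dex replicate 4, at -1.17, lay above 2 of the KO vehicle arrays, and the change of -0.52 (interval -0.96 to -0.09) did not pass (adjusted p = 0.13). A second Adgre1 probe was well above background on 2 of 16 arrays, both with vehicle, and was not tested.

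Csf1r was measured by 3 probes. On the brightest, WT levels were 0.54, 0.91, 0.97 and 0.52 with vehicle and 0.30, 0.13, 0.10 and -0.02 with Dex, again with no overlap. The change was -0.61 (SE 0.16, adjusted p = 0.023), a 1.53-fold fall. In KO the levels were 0.81, 0.67, 0.82 and 0.62 with vehicle and 0.09, 0.00, 0.29 and 0.73 with Dex. Of the KO Dex arrays 3 lay below every KO vehicle array, and replicate 4 lay among them. The KO change was -0.45 (interval -0.79 to -0.12, adjusted p = 0.089). A second probe gave -0.87 in WT (adjusted p = 0.0061) and -0.42 in KO (adjusted p = 0.18). The dimmest of the 3 gave -1.02 in WT (adjusted p = 0.17) and 0.29 in KO (adjusted p = 0.82). The WT call on the brightest probe was lost in 11 of 30 alternatives, among them leaving out the 2 arrays with high neutrophil genes (adjusted p = 0.056).

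Of the 3 C1q chains C1qc alone was called, in WT. C1qc in WT was at 1.65, 2.08, 1.89 and 1.55 with vehicle and at 1.07, 0.83, 0.50 and 0.83 with Dex. The groups did not overlap, and C1qc fell 1.98-fold (log2 change -0.98, SE 0.21, adjusted p = 0.0080). In KO it was at 1.73, 1.67, 1.77 and 1.32 with vehicle and 0.94, 0.63, 1.15 and 1.70 with Dex, where replicate 4 was again at the vehicle level, and the change was -0.52 (adjusted p = 0.16).

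C1qa in WT was at 0.72, 1.45, 1.66 and 0.91 with vehicle and 0.83, 0.34, 0.61 and 0.43 with Dex, so that 1 Dex array lay above 1 vehicle array. C1qb in WT was at 0.73, 1.12, 1.44 and 0.76 with vehicle and 0.85, 0.18, 0.49 and 0.07 with Dex, with Dex replicate 1 again inside the vehicle range. Neither change passed, at -0.63 for C1qa (interval -1.12 to -0.14, adjusted p = 0.10) and -0.61 for C1qb (interval -1.09 to -0.14, adjusted p = 0.097). In KO the changes were -0.17 for C1qa and -0.30 for C1qb (adjusted p = 0.78 and 0.54). The KO Dex levels of both genes were highest in replicate 4, at 1.19 for C1qa, with 0.43 to 0.71 in the other 3, and at 1.01 for C1qb, with 0.36 to 0.45 in the others.

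Of the 3 uptake receptors Folr2 alone was called. Folr2 in WT was at 0.42, 1.31, 1.15 and 0.55 with vehicle and at 0.04, -0.65, -0.30 and -0.35 with Dex, with no overlap, and fell 2.26-fold (log2 change -1.17, SE 0.30, adjusted p = 0.021). In KO its levels were 0.75, 0.63, 0.63 and 0.03 with vehicle and -0.40, -0.28, 0.13 and 0.95 with Dex. The KO Dex group thus spanned the vehicle range, and the change was -0.41 (interval -1.04 to 0.23, adjusted p = 0.52). The WT call was lost in 8 of 30 alternatives, 3 of which left out 1 array each, WT vehicle replicate 2, WT vehicle replicate 3 or WT Dex replicate 2.

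Mrc1 in WT was at -0.44, -0.18, -0.59 and -1.10 with vehicle and -0.83, -1.5, -1.05 and -0.70 with Dex. In KO it was at -1.10, -1.13, -0.55 and -1.02 with vehicle and -0.88, -1.61, -0.52 and -0.05 with Dex. The groups overlapped in both genotypes, with changes of -0.44 in WT (interval -1.09 to 0.20, adjusted p = 0.40) and 0.19 in KO (interval -0.46 to 0.83, adjusted p = 0.83). Cd163 in WT was at 0.11, 0.32, 0.40 and -0.55 with vehicle and 0.13, -0.36, -0.31 and 0.67 with Dex, a change of -0.04 (interval -0.77 to 0.69, adjusted p = 0.96). In KO it was at -0.75, -0.19, 0.12 and -0.35 with vehicle and -0.25, -0.31, 0.83 and 0.98 with Dex. Its KO change of 0.60 (interval -0.13 to 1.34) was the highest of the 9 and did not pass (adjusted p = 0.37). In WT the Mrc1 interval reaches falls of the size seen for C1qc and Csf1r, and the Cd163 interval reaches that of Csf1r only.

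**Figure D2:**
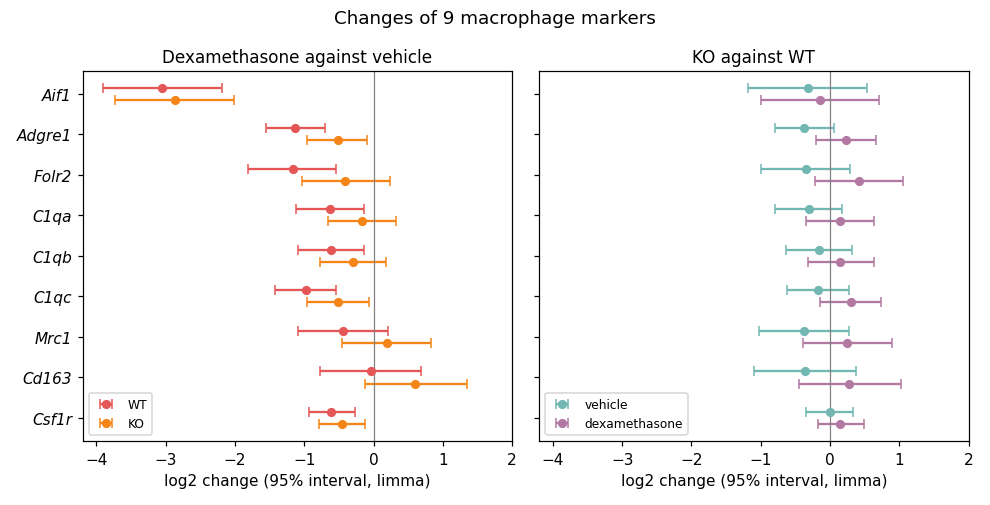
Log2 change of each of 9 markers with Dex against vehicle (left, WT and KO) and in KO against WT (right, vehicle and Dex); points are limma estimates from 4 animals a group and bars are 95% intervals. The Aif1 intervals on the left end at -2.19 and -2.01, and each interval on the right includes 0.

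Without the leave-one-out and block settings, the WT count ranged from 0 (normexp) to 6 (the authors' deposited table), and it was 2 with each array scaled on its median. It was 3 without WT vehicle replicate 2 or replicate 3, the arrays on which the markers were highest in that group, and 1 with slide as a fixed block, where WT Dex replicates 1 and 3 and KO vehicle replicate 2 carry no weight. In KO the count was 3 without Dex replicate 4, when C1qc (-0.71, adjusted p = 0.028) and Csf1r (-0.60, adjusted p = 0.015) passed with Aif1. The WT groups did not overlap for the same 5 markers that were called, where 9.24% of all features did not overlap in that direction. In KO this held for Aif1 alone, with 7.09% of all features.

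Arrays of 1 slide give a comparison free of slide differences. On slide 5, the only one with both WT treatments, the Dex array minus the vehicle array was -3.17 for Aif1, -1.29 for Adgre1, -1.20 for Folr2, -0.72 for C1qc and -0.39 for Csf1r. The 9 markers had a median of -0.57 there, with 8 of 9 below 0 and Cd163 at 0.19, beside -0.05 for all features. For KO, slides 4, 6 and 7 each held 1 array of both treatments. The Aif1 difference was -1.79, -3.43 and -3.23 on these. The median of the 9 markers was -0.38, 0.10 and -0.81, with 7, 4 and 8 of 9 below 0. Slide 6, where the median lay above 0, carried KO Dex replicate 4 and KO vehicle replicate 3.

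Within groups the markers tended to be high or low on the same arrays. KO Dex replicate 4 had the highest level of its group for 8 of 9 markers, all but Aif1, and lay 0.55 above the group mean on average. KO Dex replicate 2 was lowest for 6. With vehicle in WT, replicates 2 and 3 held the highest level of all 9 markers between them, and replicates 1 and 4 the lowest. KO vehicle replicate 3 was highest for 6 markers and replicate 4 lowest for 6. WT Dex replicate 2 was lowest for 5 and replicate 1 highest for 5. The markers are therefore not independent readings of an animal, and their agreement within a group is not replication.

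Aif1 departed from the other markers on the same arrays. Each gene was centred on its mean over the 16 arrays, and the median of the other 8 was subtracted from Aif1. In WT the difference was 1.72, 1.46, 0.75 and 1.18 with vehicle and -1.96, -1.41, 0.03 and -0.88 with Dex. In KO it was 0.82, 0.95, 1.86 and 1.04 with vehicle and -0.60, -1.54, -1.77 and -1.62 with Dex. The vehicle and Dex ranges did not overlap in either genotype. The group means moved from 1.28 ± 0.41 to -1.06 ± 0.85 in WT and from 1.17 ± 0.47 to -1.38 ± 0.53 in KO (SD, n = 4). The 2 Dex values nearest to the vehicle range, 0.03 and -0.60, came from the 2 arrays with high neutrophil genes, and the part of those cells in the Aif1 level was not tested. No test was made on this difference, since Aif1 was known to stand apart.

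**Figure D3:**
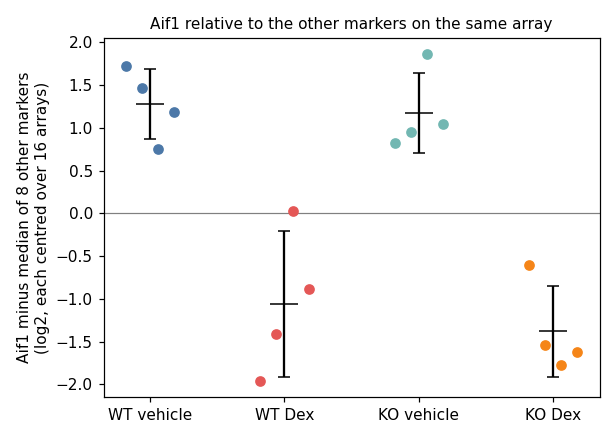
Aif1 level minus the median of the 8 other markers on the same array, in log2 units with each gene centred on its mean over the 16 arrays; points are single animals, bars are the mean ± 1 SD (n = 4). The 8 vehicle arrays lie from 0.75 to 1.86 and the 8 Dex arrays from -1.96 to 0.03.

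Whether the Dex response depends on KLF15 was asked with the interaction, the KO response minus the WT response. None of the 9 markers passed, at an unadjusted p under 0.05 either, and none of the 25196 features passed after adjustment (0%), with 11.4% at an unadjusted p under 0.05. All 9 interaction values were above 0, with 37.7% of all features below 0, and had a median of 0.47 beside 0.11 for all features; with median scaling 2 of 9, Aif1 and Csf1r, were below 0. The highest was 0.77 for Folr2 (interval -0.13 to 1.67, adjusted p = 0.50). Adgre1 gave 0.60 (interval -0.01 to 1.21, adjusted p = 0.44), Cd163 gave 0.64 (interval -0.40 to 1.68) and Mrc1 0.63 (interval -0.28 to 1.54). Aif1 and Csf1r gave 0.17 and 0.16 (intervals -1.04 to 1.39 and -0.32 to 0.63). The 5 calls in WT against 1 in KO therefore do not show that any single marker responded differently in the 2 genotypes. The upper ends of the intervals were above 1 for every marker except C1qb (0.99) and Csf1r. These values are of the brightest probe of each gene. The dimmest Csf1r probe gave an interaction of 1.31 (interval -0.06 to 2.68, adjusted p = 0.41 by limma). The second gave 0.46 (interval -0.09 to 1, adjusted p = 0.47).

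Averaged over both genotypes, Dex lowered 5 of the 9 markers, against 8.39% of all features called lower. These were Aif1 (-2.96, adjusted p = 8.0e-06), Adgre1 (-0.83, adjusted p = 9.8e-04), Folr2 (-0.79, adjusted p = 0.017), C1qc (-0.75, adjusted p = 0.0025) and Csf1r (-0.53, adjusted p = 0.0037). C1qb was at -0.45 (adjusted p = 0.063) and C1qa at -0.40 (adjusted p = 0.12), while Mrc1 (-0.13) and Cd163 (0.28) lay nearest to 0.

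Loss of KLF15 alone changed none of the markers by the test. With vehicle, none of the 9 was called in KO against WT, at an unadjusted p under 0.05 either, where 0.258% of all features were called and 7.02% had an unadjusted p under 0.05. All 9 differences were below 0, Csf1r by less than 0.01 and at 0.10 with median scaling, with 63.7% of all features below 0. They ran down to -0.37 for Adgre1 and Mrc1 (adjusted p = 0.77 and 0.85) and had a median of -0.32 beside -0.08. Under Dex none was called either, with 0 at an unadjusted p under 0.05, where 1.83% of all features were called and 13.9% had such a p. There 1 of 9 differences, that of Aif1, was below 0, with 43.5% of all features, and the median was 0.23 beside 0.05; with median scaling 4 of 9 were below 0. Of the intervals of these 18 differences, that of Folr2 under Dex (0.42, interval -0.22 to 1.05) reached highest and that of Aif1 with vehicle (-0.32, interval -1.18 to 0.54) lowest. These 2 comparisons and the Dex comparisons use the same arrays, so a low KO vehicle group enters both. The counts above use the brightest probe of each gene. On the other 2 Csf1r probes KO was higher than WT under Dex, by 1.02 on the dimmest and 0.41 on the second. By limma their unadjusted p was 0.041 and 0.039, and neither passed after adjustment (adjusted p = 0.30 and 0.29).

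Other macrophage genes were described from a list of 30, of which 29 were tested. In WT 9 were called lower and 1 higher, beside 5.66% and 5.09% of all features, and in KO 4 were lower and 2 higher, beside 4.72% and 5.31%. Their median change was -0.70 in WT and -0.12 in KO. Fcgr1, the high-affinity IgG receptor, fell 4.74-fold and 4.27-fold in WT and KO (adjusted p = 5.3e-04 and 7.6e-04). Its group means went from -1.56 ± 0.38 to -3.81 ± 0.51 and from -2.00 ± 0.24 to -4.09 ± 0.64 (SD, n = 4). Stab1, a scavenger receptor, fell 1.56-fold and 1.58-fold (adjusted p = 0.0014 and 0.0010). Mgl2, a C-type lectin, fell 3.64-fold in WT (adjusted p = 0.0018). Timd4, a receptor for phosphatidylserine on dying cells, fell 2.67-fold in WT (adjusted p = 0.0026). With vehicle and Dex in KO, Mgl2 was at -1.14 ± 0.26 and -1.86 ± 0.76 (SD, n = 4). Timd4 was at -3.83 ± 0.41 and -3.75 ± 0.47 there, so its fall was seen in WT alone. In KO, Lyve1, the hyaluronan receptor of a perivascular macrophage subset and of lymphatic endothelium, rose 2.46-fold (adjusted p = 0.0099; WT change 0.29, adjusted p = 0.58), and Lgals3, a galactose-binding lectin, rose 1.78-fold (adjusted p = 0.013). The Lyve1 group mean was lowest in KO vehicle, at -1.14 ± 0.38, beside -0.39 ± 0.29 in WT vehicle. With Dex it was 0.16 ± 0.53 in KO and -0.11 ± 0.45 in WT (SD, n = 4). Lgals3 was also the 1 gene of the list called higher in WT. Its WT group means went from 1.39 ± 0.45 to 2.07 ± 0.25 with Dex (SD, n = 4). Mertk, an apoptotic cell receptor, had changes of 0.51 and 0.50 (adjusted p = 0.094 and 0.10). Lyz2, which encodes lysozyme, was at -0.54 and -0.13 and Cd14, a coreceptor for lipopolysaccharide, at -0.33 and 0.36 (adjusted p = 0.39, 0.91, 0.24 and 0.23). The WT counts of this list dropped to 1 lower with normexp or with slide as a fixed block.

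For the CSF1 axis and macrophage regulators, 14 of 15 listed genes were tested, with 2 called lower in WT and 1 in KO. Maf, a transcription factor of resident macrophages that other cells also make, fell 1.57-fold in WT and 1.63-fold in KO (adjusted p = 0.0045 and 0.0026). Csf1, the growth factor bound by CSF1R, fell 1.57-fold in WT (adjusted p = 0.031), and its KO change was -0.37 (adjusted p = 0.26). Il34, the other CSF1R ligand, had changes of 0.02 in WT (adjusted p = 0.95) and -0.37 in KO (adjusted p = 0.10). Spi1, which encodes PU.1, was at -1 in WT (interval -1.74 to -0.27, adjusted p = 0.081) and -0.28 in KO (adjusted p = 0.76).

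Complement genes other than C1q, 16 tested, gave 3 lower in WT and 1 lower in KO. Itgax, a chain of complement receptor 4 that dendritic cells also carry, fell 3.36-fold in WT and 2.93-fold in KO (adjusted p = 0.0014 and 0.0029). C1s1, a protease that binds C1q, and C2 fell 1.40-fold and 1.46-fold in WT (adjusted p = 0.019 and 0.024). Relatives of the markers, 15 tested, gave 5 lower and none higher in each genotype, among them genes that muscle, fat or fibroblasts make. C1qtnf2, a secreted C1q-like protein, fell 3.40-fold in WT and 4.03-fold in KO (adjusted p = 6.2e-05 and 1.3e-05). Aif1l, the closest relative of Aif1, fell 1.80-fold and 1.85-fold (adjusted p = 0.0030 and 0.0020). Mrc2, the relative of Mrc1 found on fibroblasts, changed by -0.87 and -0.95 (adjusted p = 0.035 and 0.022). C1qtnf1 fell in both genotypes as well, by 0.98 and 1.11 on the log2 scale, and Pla2r1, an endocytic receptor, fell 1.59-fold in WT.

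Genes of other white blood cells were set beside these. None of 12 monocyte genes was called in either genotype by limma, with 1 lower in WT and 1 lower and 1 higher in KO at an unadjusted p under 0.05, and medians of -0.10 and 0.16. Ly6c2, a monocyte surface protein, was at 0.07 and 0.14, and Ccr2, the monocyte chemokine receptor, at -1.16 and -1.17 (adjusted p = 0.14 and 0.16). Averaged over genotypes, Ccr2 was the 1 monocyte gene called, and fell 2.24-fold (interval -1.88 to -0.45 on the log2 scale, adjusted p = 0.026). Cx3cr1 was at -1.43 and 0.52 with wide intervals (-3.34 to 0.47 and -1.38 to 2.43), and Itgam, an integrin chain of monocytes and neutrophils, at -0.14 and 0.19 (adjusted p = 0.90 and 0.91). Of 20 pan-leukocyte genes 1 was lower in WT, Laptm5, a lysosomal protein of blood cells, which fell 1.96-fold (adjusted p = 0.022). None was called in KO, with 1 lower at an unadjusted p under 0.05. Ptprc, which encodes CD45, was at -0.70 and -0.43 (adjusted p = 0.34 and 0.68).

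Of 6 dendritic cell genes tested, 3 were lower in WT and 1 in KO. Batf3, a transcription factor of conventional dendritic cells, fell 2.08-fold in WT and 1.74-fold in KO (adjusted p = 0.0050 and 0.024). Ciita, the regulator of MHC class II genes, fell 4.09-fold in WT (adjusted p = 0.015). The third WT call, Siglech, a receptor of plasmacytoid dendritic cells, is given no fold: its probe was well above background on 1 of 4 WT vehicle arrays and 0 of 4 WT Dex arrays (adjusted p = 0.021). Ccr7, a defining gene of migrating dendritic cells, was not well above background on any array. Mcpt4, a mast cell protease, was the 1 gene of 7 lower in WT (1.92-fold, adjusted p = 0.034). None of 13 lymphocyte genes was called in either genotype, with 1 lower in WT and 0 in KO at an unadjusted p under 0.05. Among 11 neutrophil genes Lcn2, an acute-phase protein that other cells make too, was the 1 called, and it rose by 6.36 in WT and 6.40 in KO on the log2 scale. The summed linear signal of these 11 genes, in multiples of the 75th percentile, was at most 0.938 on the vehicle arrays of WT and 0.729 on those of KO, and at least 3.68 and 3.83 on the Dex arrays. Lcn2 made most of the lowest Dex sums, with log2 levels from 1.74 in WT and 1.83 in KO, and the list's median on the 6 Dex arrays without high neutrophil genes was from -1.68 to 0.68. Without the 2 arrays of high neutrophil genes, Adgre1, Folr2 and C1qc kept their WT calls (adjusted p = 0.013, 0.041 and 0.032), and the part of neutrophils in the markers' changes was otherwise not tested.

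Muscle fibre, stromal and red cell genes were counted too. None of 12 muscle fibre genes was called, with 1 higher in WT and 0 in KO at an unadjusted p under 0.05, and medians of 0.09 and 0.20. Of 11 fibroblast genes 1 was lower in each genotype, Lum, a matrix proteoglycan, at -1.16 and -0.79. Of 12 endothelial genes 1 was lower and 2 higher in WT and 5 lower and 2 higher in KO. Ptprb, an endothelial phosphatase, was lower in WT by 0.69 on the log2 scale, and Tek, the angiopoietin receptor, was at -0.95 in KO. The 2 called higher were Ramp2 and Robo4 in each genotype, at 0.46 and 0.42 in WT and at 0.81 and 0.60 in KO. Of 8 adipocyte genes only Lep, the leptin gene, passed, and it rose by 1.22 in WT and 1.82 in KO on the log2 scale. None of 4 erythroid genes was called, at an unadjusted p under 0.05 either. In KO against WT, none of the 29 other macrophage genes was called with vehicle or with Dex, with 3 lower and 2 higher, respectively, at an unadjusted p under 0.05. Ptprb was the 1 gene of these lists called in that comparison, higher in KO under Dex (0.83, adjusted p = 0.020).

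**Figure D4:**
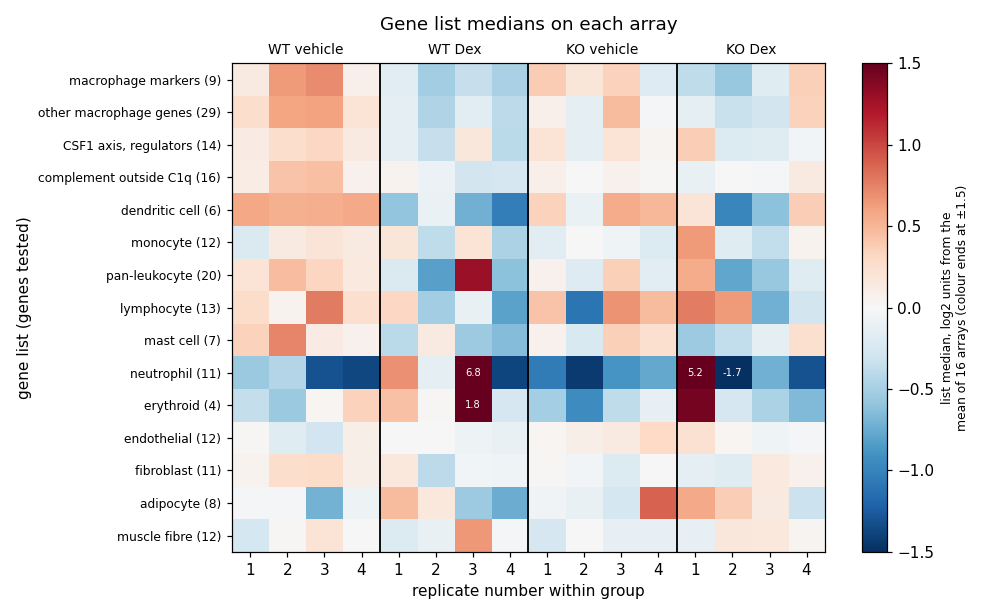
Median of each gene list on each of the 16 arrays (columns, replicates 1 to 4 of 4 groups), in log2 units with each gene centred on its mean over the arrays; the number of genes tested stands beside each list and the colour scale ends at ± 1.5. The 9 macrophage markers lie below 0 on all 4 WT Dex arrays and on 3 of 4 KO Dex arrays, and the neutrophil row stands out on 2 Dex arrays (6.76 and 5.17).

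The features most like the markers over the 16 arrays were ranked by Pearson's r with the markers' mean level, among 15167 other named genes. Clec4a3, a C-type lectin receptor of myeloid cells, came first (r = 0.977, Spearman's rho = 0.947). Evi2a (r = 0.947), Wfdc17 (0.940), Lgi2 (0.933), Ccl8, a chemokine (0.932), Efhd1 (0.927), Tnfrsf17 (0.927) and Slamf9 (0.926) followed. With each group's own mean removed, r over the same arrays was from 0.769 to 0.950 for these 8 genes. The points are whole-muscle arrays that share treatment, slide and the proportion of cell types, and the ranking is a description of likeness over these arrays.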

How the data were processed

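Quadriceps RNA of 16 mice (4 per group) was measured on single-colour Agilent 4x44K arrays; per the labels' protocols the RNA was amplified to cDNA and labelled with Cy3. The deposited scanner files hold spot intensity, background-subtracted and detrended with Feature Extraction 10.7.3.1 per the file headers, and not normalized between arrays. The authors' deposited table of the series holds log2 values with column medians from 6.85 to 6.87; its ranks follow the scanner's median signal (Spearman correlation at least 0.9998), and the sources used here do not name its normalization.

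Here log2 processed signal minus the array's 75th percentile was used. Control and outlier spots were left out, spots of a probe were averaged, a probe was kept when 4 or more of the 16 arrays flagged it well above background, and the brightest probe stood for a gene, leaving 25196 features. Of 26382 probes with a RefSeq accession, 24844 were given a symbol. Group means over all 16 arrays were fitted with limma 3.58.1 (R 4.3.3, lmFit and eBayes, two-sided), with Benjamini-Hochberg adjustment over all features and a threshold of 0.05. The script was tested on simulated data with changes set in WT Dex. It recovered 51% of 100 changes of 1 log2 unit and 71% of 100 changes of 2 log2 units. A change that did not pass is thus not shown to be absent.

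All 9 matched markers are named with every probe. For each other list and comparison up to 4 called genes with the lowest adjusted p are named, and a fixed set (such as Spi1, Csf1, Ptprc and Aif1l) whatever its result; some genes that rule names are not reported here. The markers and lists were chosen with earlier results of these data known. Alternatives were background correction, scaling, the deposited table, the filter, the choice of probe, slide and replicate number as blocks, and leaving out arrays. The scanner files used here hold no mean spot signal, so normexp was run on the median signal. Samples of a group are separate animals per the labels; the number of arrays limits the precision. Replicate numbers did not pair the samples.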

Additional observations from a re-analysis of the deposited data

Results flagged for a closer look

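In 2 of 36 marker and group combinations, 1 animal stood far from the other 3, by the gap to its nearest neighbour as a share of the group's range. Chance alone flags about 1 in 20 groups. C1qb in KO Dex replicate 4 had a gap share of 0.85, with a level of 1.01 beside 0.36 to 0.45 in the other 3. Folr2 in KO vehicle replicate 4 had a gap share of 0.84, with a level of 0.03 beside 0.63 to 0.75.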

How the results depend on the processing

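The count of markers called lower with Dex in WT was 5. It was 0 with normexp background correction, 2 with median scaling, 1 with slide as a fixed block, 3 without slide 7 and WT Dex 1, and 3 to 5 when 1 array was left out. In KO, where it was 1, it was 0 with normexp, 2 in the authors' deposited table, 3 with slide as a random block (consensus correlation 0.575) and 1 to 3 with 1 array left out. Averaged over genotypes, where it was 5, it was 3 with normexp, 3 with median scaling, 2 with slide as a fixed block and 5 to 6 with 1 array left out. The marker counts for KO against WT and for the interaction were 0 in each alternative run. Over all features, slide as a random block called 321 for the interaction in place of 0. It called 433 for KO against WT under vehicle in place of 65. Same-numbered replicates did not deviate together (correlations from -0.66 to 0.41), and with the replicate number as a block the WT count was 3, with Folr2 at an adjusted p of 0.055 and Csf1r at 0.057.

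No marker's change that was called, in the analysis reported or in the alternative, turned its direction among 1602 recomputed values; 35 lost their call and 12 gained one. Changes called in neither did cross 0, in 49 values of 15 of the 54 marker comparisons, for example Cd163 with Dex in WT (-0.04, and 0.20 with median scaling). Of 8538 values of the other named genes 3 reversed, all with normexp: Siglech at 0.27 in WT and 0.30 averaged over genotypes, and Timd4 at 0.11 averaged. Of 2670 recomputed counts of the other lists 239 moved by over 1.5 times. Median scaling moved the median of all features in WT from -0.07 to 0.17 and the share of calls that were higher from 47.4% to 82.8%. The markers' median less that of all features was -0.56 under both. Under Dex in KO against WT the share of higher calls went from 52.2% to 10.2% with median scaling and to 8.16% with normexp. Normexp called 183 features with Dex in WT and 404 in KO, in place of 2709 and 2528. Aif1's second probe and Csf1r's dimmest probe were near background, which limits what they show. The causes of these shifts were not tested.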
